A study of Bos indicus with 6 samples.

Results

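Interferon-stimulated genes are genes that a cell transcribes after interferon binds its receptors. The group described here was set by symbol: ISG15, MX1, MX2, IFI6, RSAD2, IFIH1 and USP18, which are induced by type I interferon, with STAT2 and IRF9, members of the transcription factor complex that interferon activates. A row of the deposited gene table was a member when its symbol equalled 1 of these 9 symbols. This found 8 of the 24616 rows, because no row carries the symbol IRF9. The row ISGF3G bears an older symbol of IRF9, and its values are given beside those of the members without being counted among them.

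Type I interferons bind a receptor made of IFNAR1 and IFNAR2, to which the kinases TYK2 and JAK1 are attached. The kinases phosphorylate STAT proteins, among them STAT2, which acts with IRF9 in the complex ISGF3, and this complex binds the promoters of the interferon-stimulated genes. In cattle the family is best known from the uterus and from blood cells of early pregnancy, where the embryo's interferon tau induces genes such as ISG15, MX1, MX2 and RSAD2.

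The libraries were made from the isthmus, the narrow part of the oviduct next to the uterus, of 6 multiparous Nelore cows, with 3 cows in each group and 1 library per cow. LF/LCL stands for large follicle and large corpus luteum, and SF/SCL for small follicle and small corpus luteum. Tissue was taken on day 4 after GnRH (buserelin acetate, 1 µg), on the side of the ovary that held the corpus luteum, and the study sequenced the cows that ranked highest in the LF/LCL group and lowest in the SF/SCL group for ovarian and hormonal measures. The question was how the ovarian hormones around ovulation bear on transcript abundance in the oviduct. All cows had been presynchronized with sodium cloprostenol (0.5 mg), a prostaglandin F2α analog, and buserelin acetate given 7 days apart. On day -10 all received a device releasing progesterone (1 g) and estradiol benzoate (2 mg), and only the LF/LCL cows received cloprostenol as well on that day. The device was removed 42 h before GnRH in LF/LCL cows and 30 h before GnRH in SF/SCL cows, and both groups were given cloprostenol at removal and again 6 h later. The groups therefore differed in both the length of progesterone exposure and 1 prostaglandin injection. The labels and methods list no pregnancy, infection or interferon treatment.

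The values are normalized counts, that is, uniquely mapped reads per gene divided by a size factor for each library. The libraries held 23899117 to 34193164 reads, with a median of 27155932.5. A library of the SF/SCL group, cow 489215, stood apart from the other 5 over all genes. With it, 0 of 15387 genes passed a Benjamini-Hochberg adjusted p-value of 0.05 in limma, and 1333 had an unadjusted p-value under 0.05. Without it, the same test called 2827 genes. Tests of the members below are therefore given with and without this cow, and leaving it out leaves 2 SF/SCL cows, whose spread limma estimates together with the LF/LCL cows. Nothing in the labels says why this library differs.

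Members of the group were high in the SF/SCL cows 856 and 97 and low in SF/SCL cow 489215 and in the 3 LF/LCL cows. Cow 856 had the highest value for 8 of 8 members, and cow 97 the second highest for 8 of 8. In both cows 8 of 8 members lay above every LF/LCL cow, against 27.6% of all genes with a mean normalized count above 5. Cow 489215 had the lowest value of all 6 cows for 6 of 8 members, where 35.5% of all genes were lowest in that cow. Within LF/LCL, cow 617 had the lowest value for 8 of 8 members. The groups LF/LCL and SF/SCL as labelled therefore overlapped for all members except IFIH1, and 1 of 8 is to be read against 9.52% of all genes whose groups did not overlap with SF/SCL higher. The plot of normalized counts by cow shows this order.

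**Figure D1:**
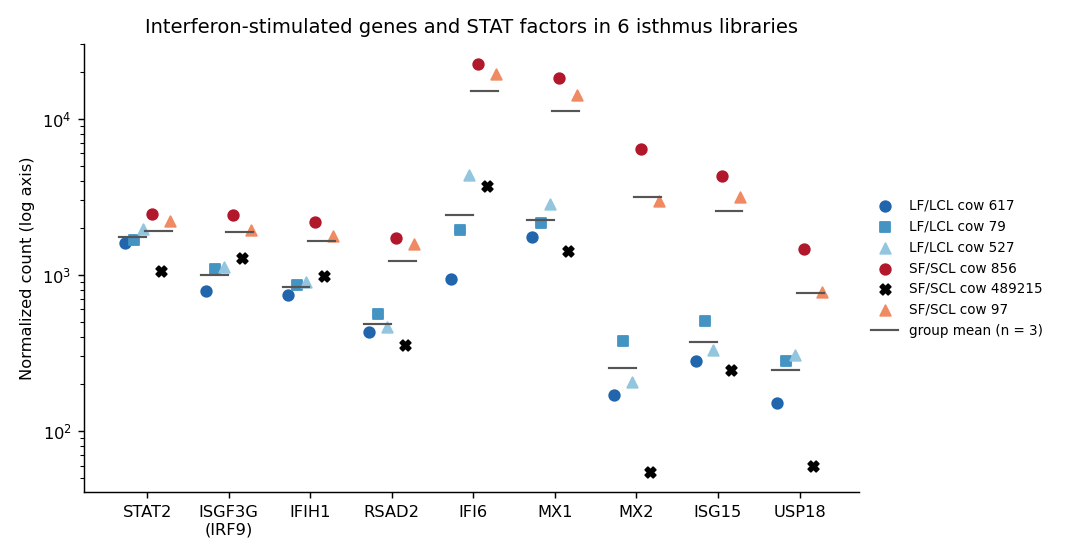
Normalized counts (log axis) of the 8 members and of ISGF3G, the row with an older symbol of IRF9, in each of the 6 cows, with a line at the mean of each group (n = 3). Cows 856 and 97 lie above the LF/LCL cows for every gene plotted, and cow 489215 lies below them for 6 members, with MX2 at 54.6 and USP18 at 59.9. Levels of different genes are not comparable, since gene length was not taken into account.

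ISG15 encodes a ubiquitin-like protein that is joined to other proteins after interferon treatment. Its normalized counts were 279, 503 and 328 in LF/LCL cows 617, 79 and 527, and 4281, 245 and 3162 in SF/SCL cows 856, 489215 and 97. Cows 856 and 97 were thus 11.6-fold and 8.54-fold above the LF/LCL mean, whereas cow 489215 fell below all 3 LF/LCL cows. The LF/LCL mean was 370 ± 118 (SD, n = 3) and the SF/SCL mean 2563 ± 2084 (SD, n = 3). The log2 difference, always SF/SCL minus LF/LCL on log2(normalized count + 1), was 2.05 with a standard error of 1.06 and an adjusted p-value of 0.661 in limma. Without cow 489215 it was 3.35 with a standard error of 0.27 and an adjusted p-value of 0.00229.

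USP18 encodes the protease that removes ISG15 from proteins and also restrains signalling at the interferon receptor. It was measured at 151, 281 and 305 in the LF/LCL cows and at 1471, 59.9 and 774 in SF/SCL cows 856, 489215 and 97. The value of cow 489215 rests on 45 reads, with an exact Poisson interval of 43.7 to 80.2 at 95% confidence, which covers counting error only and lies below the lowest LF/LCL cow. The groups overlapped, the log2 difference was 0.80 with a standard error of 1.15, and the adjusted p-value from limma was 0.893. Without cow 489215 the difference was 2.18 with a standard error of 0.39 and an adjusted p-value of 0.0154. The value was negative (-0.12) when cow 856 was left out instead. USP18 was 5.99-fold above the LF/LCL mean in cow 856 and 3.15-fold in cow 97.

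MX1 and MX2 encode dynamin-like GTPases that block the replication of viruses. MX1 had 1737, 2160 and 2832 in the LF/LCL cows and 18266, 1411 and 14114 in SF/SCL cows 856, 489215 and 97. MX2 had 170, 378 and 207 in the LF/LCL cows and 6410, 54.6 and 2990 in the same order of SF/SCL cows. Both genes were lowest in cow 489215 and many times higher in the other SF/SCL cows than in any LF/LCL cow. MX2 had the widest range of the members, with 117-fold between cows 856 and 489215, and cow 489215 held 41 reads of it (interval for the normalized count 39.2 to 74.1). Cow 856 was 25.5-fold and cow 97 11.9-fold above the LF/LCL mean of MX2, and for MX1 these folds were 8.14 and 6.29.

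For MX1 the group means were 2243 ± 552 (SD, n = 3) and 11264 ± 8781 (SD, n = 3), with a log2 difference of 1.70, a standard error of 0.95 and an adjusted p-value of 0.697 in limma. For MX2 they were 252 ± 111 (SD, n = 3) and 3152 ± 3181 (SD, n = 3), with a log2 difference of 2.10, a standard error of 1.71 and an adjusted p-value of 0.821 in limma. On the log2 scale of the fit, cow 489215 lay furthest from the other SF/SCL cows for both genes. Without cow 489215 the log2 difference of MX1 was 2.87 with a standard error of 0.22 and an adjusted p-value of 0.00223 in limma. That of MX2 was then 4.20 with a standard error of 0.43 and an adjusted p-value of 0.00328, the largest difference among the members. The paralogs have similar sequences, and reads that mapped to more than 1 place were not counted, so the split between MX1 and MX2 is uncertain to that extent. Of other annotated genes, a single long noncoding RNA is listed between MX2 and MX1 in a RefSeq gene list of another cattle assembly (NIAB-ARS_B.indTharparkar).

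IFI6 encodes a small interferon-induced membrane protein, and RSAD2 encodes viperin, an enzyme that makes an antiviral nucleotide. IFI6 had 935, 1946 and 4357 in the LF/LCL cows and 22277, 3715 and 19197 in SF/SCL cows 856, 489215 and 97. It was the 1 member for which cow 489215 lay inside the LF/LCL range, and it also had the widest LF/LCL range, with 4.66-fold between cows 527 and 617. The log2 difference of IFI6 was 2.55 with a standard error of 0.84 and an adjusted p-value of 0.458 in limma, the lowest among the members. Without cow 489215 it was 3.37 with a standard error of 0.58 and an adjusted p-value of 0.0136 in limma. Cow 856 had 9.23-fold and cow 97 7.96-fold the LF/LCL mean of IFI6.

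RSAD2 was measured at 428, 561 and 465 in the LF/LCL cows and at 1731, 354 and 1567 in SF/SCL cows 856, 489215 and 97. Its LF/LCL cows lay close together, and cow 489215 was below all of them. The log2 difference was 1.03 with a standard error of 0.61 and an adjusted p-value of 0.733 in limma with all 6 cows. Without cow 489215 it was 1.77 with a standard error of 0.15 and an adjusted p-value of 0.00241. RSAD2 shared the order of the cows with ISG15, and the correlation of the log2 values of these genes over the 6 cows was the highest of the 28 pairs of members.

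IFIH1 encodes MDA5, a sensor of double-stranded viral RNA that is itself induced by interferon. Its values were 744, 858 and 896 in the LF/LCL cows and 2170, 988 and 1763 in SF/SCL cows 856, 489215 and 97. All SF/SCL cows lay above all LF/LCL cows, although cow 489215 exceeded the highest LF/LCL cow by less than the range of the LF/LCL cows. The group means were 833 ± 79.0 (SD, n = 3) and 1640 ± 601 (SD, n = 3), and the log2 difference was 0.91 with a standard error of 0.32 and an adjusted p-value of 0.488 in limma. Without cow 489215 the difference was 1.24 with a standard error of 0.14 and an adjusted p-value of 0.00405.

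STAT2, the STAT protein specific to type I and type III interferon signalling, varied least among the members. It had 1594, 1679 and 1967 in the LF/LCL cows and 2455, 1052 and 2202 in SF/SCL cows 856, 489215 and 97. Cows 856 and 97 were 1.41-fold and 1.26-fold above the LF/LCL mean, and cow 489215 was at 0.602 of it. The SF/SCL cows therefore lay on both sides of the LF/LCL cows, and the log2 difference was 0.04 with a standard error of 0.34 and an adjusted p-value of 0.982 in limma. The sign of this value was negative when the values were scaled by library size or when LF/LCL cow 617, SF/SCL cow 856 or SF/SCL cow 97 was left out. Without cow 489215 the difference was 0.42 with a standard error of 0.12 and an adjusted p-value of 0.0598 in limma, and STAT2 was the 1 member that was not called in that fit. DESeq2 without this cow called it, with an adjusted p-value of 0.0284.

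The row ISGF3G, an older symbol of the DNA-binding subunit IRF9, had 792, 1093 and 1118 in the LF/LCL cows and 2418, 1274 and 1940 in SF/SCL cows 856, 489215 and 97. All SF/SCL cows were above all LF/LCL cows, as for IFIH1. The log2 difference was 0.87 with a standard error of 0.29 and an adjusted p-value of 0.467 in limma. Without cow 489215 it was 1.13 with a standard error of 0.19 and an adjusted p-value of 0.0120.

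With all 6 cows, 0 of 8 members passed an adjusted p-value of 0.05 in limma, where the background was 0% of all genes tested. The study, which tested these libraries with DESeq, did report differing isthmus genes, and its apoptosis terms for SF/SCL list IFI6. Of the members, 3 (RSAD2, STAT2 and IFIH1) met the filter of the study's methods, a mean above 5 and above the standard deviation over the 6 libraries. The other 5 had a standard deviation above their mean, as had 535 of the 15922 genes with a mean above 5 (3.36%). The gene total in the study's results matches the condition on the mean alone, so its own test may have kept these members, IFI6 among them. Here their values come from the fit with the filter on the mean alone. In that fit 2 of 8 members, IFI6 and IFIH1, had an unadjusted p-value under 0.05 with SF/SCL higher, against 4.35% of all genes. In the fit with both filter conditions this held for 1 of the 3 members tested, against 4.19% of genes with SF/SCL higher and 4.48% with LF/LCL higher. The edgeR quasi-likelihood test on the recovered reads, with the same filter on the mean, called 0 of 8 members, with 5 of 8 at an unadjusted p-value under 0.05 against 4.72% of genes with SF/SCL higher. DESeq2 on the same reads called 3 of 8 with the filter on the mean alone, against 1.91% of genes with SF/SCL higher. These were ISG15 with an adjusted p-value of 0.0305, MX2 with 0.0342 and IFI6 with 0.0210 in DESeq2.

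Without cow 489215, 7 of 8 members were called higher in SF/SCL by limma with the filter on the mean alone. In that fit 10.8% of all genes were called higher in SF/SCL and 7.8% higher in LF/LCL. The median log2 difference of the 8 members was 1.37 with all 6 cows (range 0.04 to 2.55) and 2.52 without cow 489215 (range 0.42 to 4.20). Over all genes with a mean above 5 the median was -0.01 with all 6 cows. The plot of group differences with and without this cow shows that the standard errors of the members were narrower without it. Where p-values are given, they describe the spread between the cows in the fit. Those from fits without cow 489215 leave out the spread that this cow adds to SF/SCL. All 6 cows were chosen from the extremes of their groups.

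**Figure D2:**
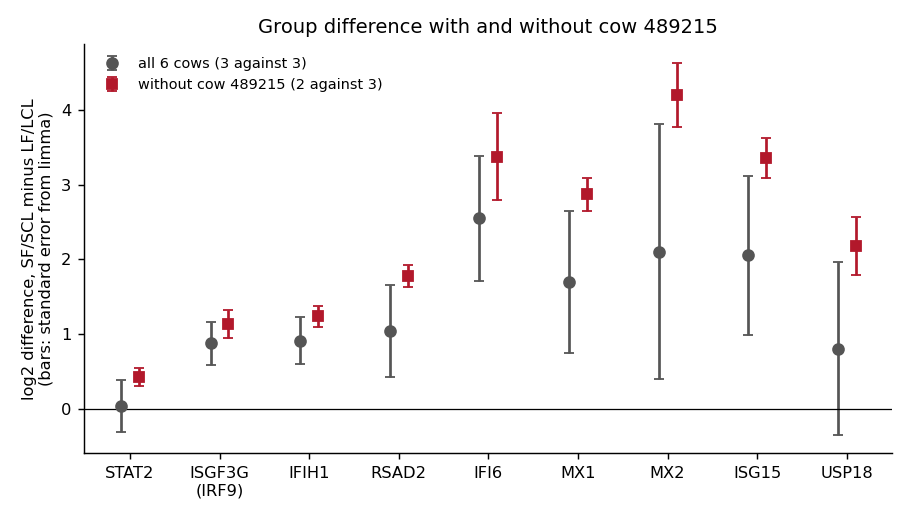
Log2 difference (SF/SCL minus LF/LCL, on log2 of normalized count + 1) of the 8 members and ISGF3G with standard errors from limma, with all 6 cows (3 against 3, circles) and without cow 489215 (2 against 3, squares). For MX2 the value was 2.10 ± 1.71 with all cows and 4.20 ± 0.43 without that cow, and for STAT2 it was 0.04 ± 0.34 and 0.42 ± 0.12.

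The members shared their order over the cows to different degrees. Pearson's r of log2(normalized count + 1) over the 6 libraries ranged from 0.61 (IFI6 with STAT2) to 1.00 (ISG15 with RSAD2, before rounding 0.998) over the 28 pairs, with a median of 0.92. These correlations are set largely by cows 856 and 97 against the other 4 cows. The search for similar genes outside the group covered only genes that met both filter conditions, which 5 of the members did not meet. Interferon-stimulated genes that failed the SD condition, such as IFIT1, could therefore not appear. Among the genes searched, the 5 most like the mean standardized profile of the members were PIGA (r = 0.996), CALR3 (0.995), ARMCX6 (0.995), KLHDC8B (0.994) and SRD5A1 (0.994). An r above 0.95 was found for 208 of the 15384 genes searched, so a profile of this kind over 6 libraries was not confined to the members. PIGA, for example, had 100, 125 and 119 in the LF/LCL cows and 314, 82.5 and 243 in SF/SCL cows 856, 489215 and 97, so that cow 856 was 2.74-fold above the LF/LCL mean.

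Upstream of the members, no interferon gene reached more than a trace level. Of 14 rows with symbols of interferon ligands, 1 had a mean above 5 and 3 were at 0 in every cow. The summed level of the 14 rows was 6.57 to 22.0 in the LF/LCL cows and 12.0 to 36.5 in the SF/SCL cows. The 1 gene above the mean of 5 was IFNB1, an interferon beta gene, which is singled out after its values were seen. It had 3, 4 and 5 reads in LF/LCL cows 617, 79 and 527 and 28, 1 and 11 reads in SF/SCL cows 856, 489215 and 97. Cows 856 and 97 were highest, as for the members, but the other cows were near the 3 reads that a count of 0 allows. The interferon alpha, beta and tau genes of cattle are families of near-identical copies, so reads from them may have been left uncounted. Transcript levels in this tissue also say nothing of interferon that reaches it from elsewhere.

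The receptor subunits and their kinases showed no common difference between the groups. In limma, 0 of 9 genes of this list had an unadjusted p-value under 0.05, and their median log2 difference was -0.05. Over all genes tested, 4.19% had such a p-value with SF/SCL higher and 4.48% with LF/LCL higher. IFNAR1 had 2213, 1858 and 2184 in the LF/LCL cows and 2400, 1007 and 2344 in SF/SCL cows 856, 489215 and 97, with a log2 difference of -0.22 and an adjusted p-value of 0.908 in limma. IFNAR2 had 997, 999 and 884 against 871, 1201 and 942, with a log2 difference of 0.05 and an adjusted p-value of 0.959 in limma. Without cow 489215 the difference of IFNAR1 was 0.19 (adjusted p-value 0.264 in limma) and that of IFNAR2 was -0.08 (adjusted p-value 0.652), each with its sign turned. In cows 856 and 97 both subunits were nearer to the LF/LCL mean, as a fold, than any member was.

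TYK2, the kinase attached to IFNAR1, had 1678, 1896 and 2018 in the LF/LCL cows and 2314, 576 and 2068 in SF/SCL cows 856, 489215 and 97. Its log2 difference was -0.41 with an adjusted p-value of 0.891 in limma, and without cow 489215 it was 0.23 with an adjusted p-value of 0.202. JAK1, the kinase attached to IFNAR2, had 9662, 9848 and 8848 in the LF/LCL cows and 7303, 11223 and 6709 in the SF/SCL cows. JAK1 thus ran opposite to the members, highest in cow 489215 and lowest in cows 97 and 856. The log2 difference of JAK1 was -0.20 with an adjusted p-value of 0.876 in limma. Without cow 489215 it was -0.43 with an adjusted p-value of 0.0253 in limma, the 1 call in this list. In that fit 7.8% of all genes were called higher in LF/LCL.

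Of 13 other STAT and IRF genes, 0 had an unadjusted p-value under 0.05 in limma, and their median log2 difference was 0.13. The shares of all genes tested were 4.19% with SF/SCL higher and 4.48% with LF/LCL higher. Their summed level was 18189 to 18441 in the LF/LCL cows and 22750, 18274 and 21711 in SF/SCL cows 856, 489215 and 97. The highest were again cows 856 and 97, at 1.21 times the LF/LCL mean, and cow 489215 lay within the LF/LCL range. Without cow 489215, 2 of the 13 were called higher in SF/SCL and 0 higher in LF/LCL, against 10.8% and 7.8% of all genes. The 2 were STAT6 and IRF7, both named after their values were seen. IRF7, an interferon-induced factor that drives interferon alpha genes, had 560, 518 and 518 in the LF/LCL cows and 1601, 519 and 1382 in SF/SCL cows 856, 489215 and 97. Its log2 difference was 0.98 with an adjusted p-value of 0.613 in limma, and without cow 489215 it was 1.48 with an adjusted p-value of 0.00229.

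The enzymes that join ISG15 to proteins were described as a list of 6 genes. In limma with all cows, 0 of 6 had an unadjusted p-value under 0.05, and their median log2 difference was 0.66. The shares of all genes tested were 4.19% with SF/SCL higher and 4.48% with LF/LCL higher. Without cow 489215, 3 of 6 were called higher in SF/SCL (10.8% of all genes) and 0 higher in LF/LCL (7.8%). These were UBA7, the activating enzyme, HERC6, a ligase, and TRIM25, a ligase induced by interferon, all named after their values were seen. HERC6 had 1005, 1067 and 1521 in the LF/LCL cows and 5840, 833 and 4472 in SF/SCL cows 856, 489215 and 97. The summed level of the 6 genes was 2.46 times the LF/LCL mean in cows 856 and 97 combined, and 0.816 times the LF/LCL mean in cow 489215.

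Among 10 genes of nucleic acid sensing, the pathway in which IFIH1 acts, 0 of the 9 tested had an unadjusted p-value under 0.05 in limma. The shares of all genes tested were 4.19% with SF/SCL higher and 4.48% with LF/LCL higher. Without cow 489215, 5 of 10 were called higher in SF/SCL (10.8% of all genes) and 0 higher in LF/LCL (7.8%). The 5 were DDX58, MAVS, ZBP1, IKBKE and TRAF3, named after their values were seen. DDX58 encodes RIG-I, a sensor related to MDA5, and had 846, 1035 and 1331 in the LF/LCL cows and 3548, 595 and 3040 in SF/SCL cows 856, 489215 and 97. ZBP1, a sensor of Z-form nucleic acids, had 31.4, 46.9 and 58.0 in the LF/LCL cows and 599, 13.3 and 367 in the SF/SCL cows. The adaptor MAVS, which relays the signal of both RNA sensors, ranged from 531 to 637 in the LF/LCL cows and had 858, 282 and 898 in SF/SCL cows 856, 489215 and 97.

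The largest list held 43 rows of other antiviral interferon-stimulated genes, of which 42 had a mean above 5 and 37 were tested. In limma, 11 of the 37 had an unadjusted p-value under 0.05 with SF/SCL higher (4.19% of all genes tested), 0 with LF/LCL higher, and 0 passed the adjusted threshold. The groups did not overlap, with SF/SCL higher, for 12 of the rows (9.52% of all genes with a mean above 5). Without cow 489215, 33 of 42 were called higher in SF/SCL and 0 higher in LF/LCL by limma with the filter on the mean alone, where 10.8% and 7.8% of all genes were called. With all cows and the filter on the mean alone, the median log2 difference over the list was 0.63, smaller than the 1.37 of the members in that fit. The summed level was 47755 to 62329 in the LF/LCL cows and 65045 to 149159 in the SF/SCL cows. This separation rests on LY6E, without which cow 489215 stood at 35357, inside the LF/LCL range of 34779 to 41482, and cows 856 and 97 at 98561 and 81938.

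The genes of this list with the smallest p-values had a different order of cows from most members, in that cow 489215 also lay above the LF/LCL cows. Choosing by the p-value of the fit with all cows favours genes in which cow 489215 lies with the other SF/SCL cows. The different order therefore follows at least in part from this choice, and it was not tested. IFITM3, a membrane protein that hinders virus entry, had 2063, 2241 and 2648 in the LF/LCL cows and 4662, 4090 and 4825 in SF/SCL cows 856, 489215 and 97. Its log2 difference was 0.97 with a standard error of 0.17, an unadjusted p-value of 0.00103 and an adjusted p-value of 0.351 in limma. No gene tested had a smaller adjusted p-value, but the adjustment gave this same value to other genes as well. LY6E, a lipid-anchored protein of the cell surface, had 12975, 15449 and 20847 in the LF/LCL cows and 50599, 29688 and 46173 in the SF/SCL cows, with a log2 difference of 1.35, a standard error of 0.30 and an adjusted p-value of 0.367 in limma. IFITM2, a relative of IFITM3, had 151, 186 and 213 against 406, 298 and 293, with a log2 difference of 0.85 and an adjusted p-value of 0.454 in limma. In these genes, unlike every member but IFIH1, no SF/SCL cow fell into or below the LF/LCL range. PLAC8, whose symbol stands on 2 rows, showed the same on the row with the smaller p-value, at 296, 389 and 313 against 665, 647 and 703, with a log2 difference of 1.02 and an adjusted p-value of 0.367 in limma. Without cow 489215 the adjusted p-values from limma were 0.00468 for IFITM3, 0.00544 for LY6E, 0.0429 for IFITM2 and 0.0101 for this row of PLAC8.

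**Figure D3:**
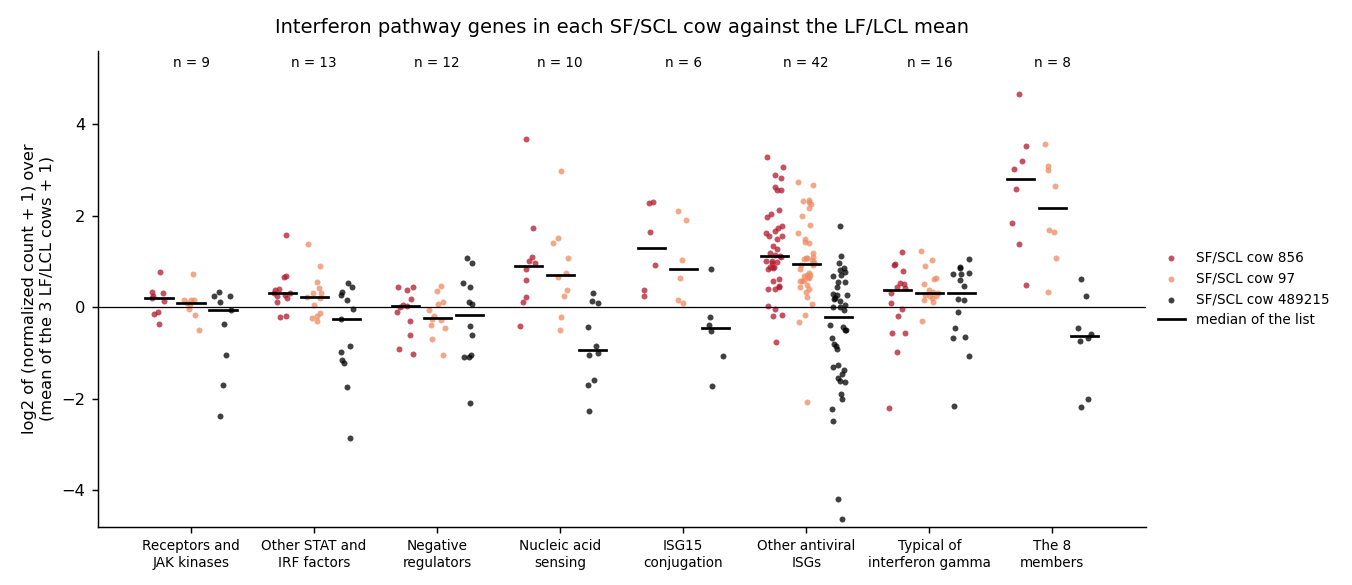
Log2 of (normalized count + 1) over (LF/LCL mean + 1) for each gene of 8 lists in SF/SCL cows 856, 97 and 489215, with the median of each list as a line and the number of genes above it. The median of the 8 members was 2.80 in cow 856, 2.17 in cow 97 and -0.63 in cow 489215, while that of the receptors and kinases was 0.20, 0.09 and -0.07, and that of the genes typical of interferon gamma was 0.37, 0.32 and 0.32.

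Genes typical of interferon gamma had a summed level above the LF/LCL cows in all 3 SF/SCL cows, cow 489215 included. In limma, 2 of 16 had an unadjusted p-value under 0.05 with SF/SCL higher (4.19% of all genes tested), and the median log2 difference was 0.41. Without cow 489215, 4 of 16 were called higher in SF/SCL (10.8% of all genes) and 0 higher in LF/LCL (7.8%). IFI30, a lysosomal thiol reductase of antigen processing, had 542, 482 and 518 in the LF/LCL cows and 1190, 711 and 963 in SF/SCL cows 856, 489215 and 97, with an adjusted p-value of 0.419 in limma with all cows and 0.00607 without cow 489215. WARS, a tryptophanyl-tRNA synthetase induced by interferon gamma, had 5308, 5329 and 4232 against 8588, 5565 and 7672, with an adjusted p-value of 0.577 in limma with all cows and 0.0160 without cow 489215. The summed level of the 16 genes, led by B2M, was 1.32 times the LF/LCL mean in cows 856 and 97 and 1.41 times in cow 489215. For the members these ratios were 6.10 and 0.918. Without the gene that led each sum they were 1.36 and 1.12 for the genes typical of interferon gamma, and 5.13 and 0.674 for the members without IFI6. Without B2M the summed level of cow 489215 was 15489, hardly above the highest LF/LCL cow at 15463.

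Of 12 negative regulators of JAK-STAT signalling, 1 had an unadjusted p-value under 0.05 in limma, with LF/LCL higher (4.48% of all genes tested). This was SOCS3, an inhibitor of JAK kinases, with 113, 132 and 103 in the LF/LCL cows and 57.0, 55.9 and 87.8 in SF/SCL cows 856, 489215 and 97. Its log2 difference was -0.81 with an adjusted p-value of 0.574 in limma, and without cow 489215 it was -0.70 with an adjusted p-value of 0.154. The median log2 difference of the 12 genes was -0.15. Without cow 489215, 2 were called higher in SF/SCL (10.8% of all genes) and 2 higher in LF/LCL (7.8%).

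The isthmus wall holds ciliated and secretory epithelium, smooth muscle and connective tissue, and markers of each were well above 0 in every library. In such bulk tissue a lower share of cells of a type and less RNA per cell cannot be told apart. Several marker lists also differed between the cows, but not all in the order of the members. The summed level of 13 of 14 ciliated epithelium markers was 44766 to 57198 in the LF/LCL cows and 84518, 51223 and 90177 in SF/SCL cows 856, 489215 and 97, so that cows 856 and 97 were highest, as for the members, while cow 489215 lay inside the LF/LCL range. CAPS led this sum. Without it, cows 856 and 97 together were at 2.13 times the LF/LCL mean and cow 489215 at 0.987 times. Smooth muscle markers (9 of 10) summed to 808563 to 926324 in the LF/LCL cows and to 375799, 1275160 and 436809 in the SF/SCL cows, lowest in cows 856 and 97 and highest in cow 489215. Fibroblast markers (8 of 8) were at 406938 to 515925 in the LF/LCL cows and at 201829, 304116 and 211995 in the SF/SCL cows. Without cow 489215, limma with the filter on the mean alone called 11 of 13 ciliated markers higher in SF/SCL (10.8% of all genes). It called 8 of 8 fibroblast and 7 of 9 smooth muscle markers higher in LF/LCL (7.8% of all genes). In each of these lists 0 were called the other way. The part of these lists in the members' result was not tested.

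Secretory and general epithelium markers (14 of 15) were dominated by OVGP1, the oviductal glycoprotein, which had 271794 and 325158 in cows 856 and 97 but 730 in cow 489215 and 287 to 1950 in the LF/LCL cows. Without OVGP1 the other 13 markers summed to 35409 to 54197 in the LF/LCL cows and to 59679, 84589 and 66064 in SF/SCL cows 856, 489215 and 97. These were highest in cow 489215, where most members were lowest. Mesothelium markers (7 of 8), led by MSLN, summed to 2940 to 3401 in the LF/LCL cows and to 28215, 3529 and 27430 in the SF/SCL cows. This sum was at 8.89 times the LF/LCL mean in cows 856 and 97 together and the secretory and general epithelium sum with OVGP1 at 8.08 times, both above the 6.10 times of the members. The mesothelium markers did not move as 1, since without cow 489215, 2 were called higher in SF/SCL and 2 higher in LF/LCL. This was by limma with the filter on the mean alone, where 10.8% and 7.8% of all genes were called. Their part in the members' result was not tested either.

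Leukocyte markers (21 of 22, led by CSF1R) summed to 3446 to 6167 in the LF/LCL cows and to 4621, 5242 and 4333 in SF/SCL cows 856, 489215 and 97. The sums of all SF/SCL cows lay inside the LF/LCL range, and those of cows 856 and 97 together were 0.884 times the LF/LCL mean, where the members stood at 6.10 times. Endothelium markers (8 of 9) were at 14262 to 18279 in the LF/LCL cows and at 11841, 17538 and 12358 in the SF/SCL cows. Erythrocyte markers summed to at most 25.3 in any cow. The plot of marker lists by cow sets these sums beside that of the members.

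**Figure D4:**
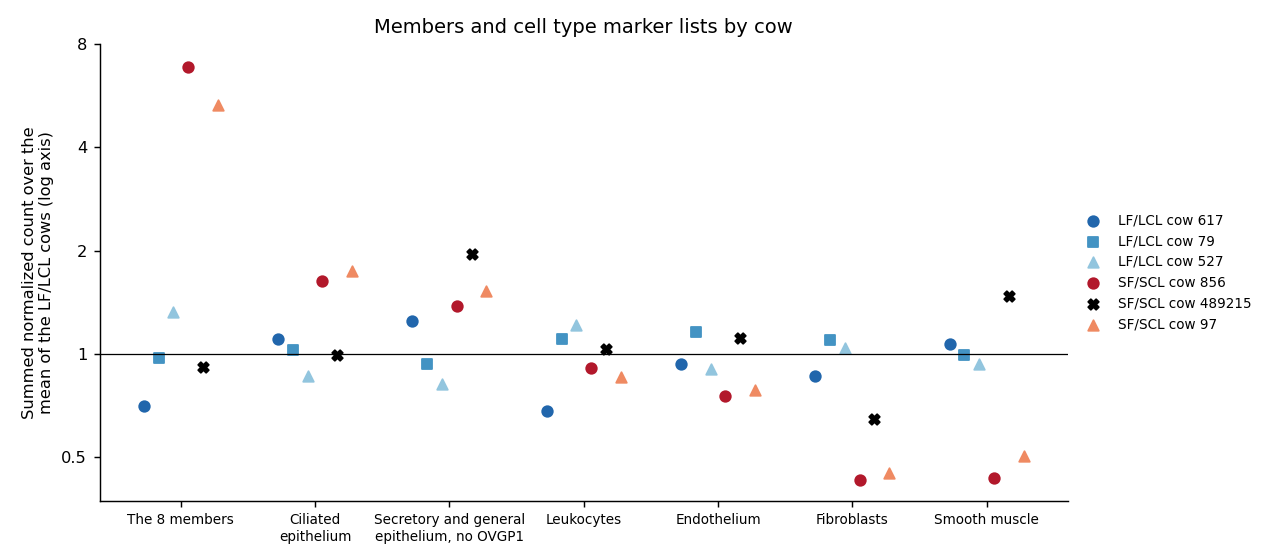
Summed normalized counts of the 8 members and of 6 cell type marker lists in each cow, divided by the mean of the 3 LF/LCL cows (log axis). Cows 856 and 97 together were at 6.10 times the LF/LCL mean for the members, 1.69 times for ciliated epithelium, 0.884 times for leukocytes, 0.440 times for fibroblasts and 0.470 times for smooth muscle, while cow 489215 was at 0.918, 0.990, 1.03, 0.647 and 1.48 times. The ciliated sum drawn includes CAPS, without which cows 856 and 97 together were at 2.13 times the LF/LCL mean. The mesothelium list and OVGP1 are not drawn.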

How the data were processed

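Polyadenylated RNA of 6 isthmus samples, 1 per cow, had been sequenced as paired reads of 101 bases. Per the study's methods and the submitters' processing notes (TopHat2 2.0.8, Bowtie2 2.1.0, HTSeq 0.5.4p2, DESeq 1.12.1), reads were aligned to the masked bovine assembly UMD3.1 and uniquely mapped reads were counted per gene. The deposited signal values are counts that the authors had scaled with size factors from DESeq, without a filter. Whether counting used the strand is not given in the sources used here, so reads of overlapping antisense genes cannot be set apart. Dividing by the smallest step of a library turned 100% of its values into whole reads (tolerance 0.1 of a read). Columns of unmapped samples numbered 0.

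Groups and cow numbers came from the sample titles. SF/SCL was compared with LF/LCL by limma 3.58.1 in R 4.3.3 (lmFit, then trended robust eBayes) on log2(value + 1), a scale that understates the change of low genes. Genes entered with a mean above both 5 and the SD over all 6 libraries (15387), or with a mean above 5 alone (15922), and Benjamini-Hochberg adjustment ran over all of them with a threshold of 0.05. edgeR 4.0.16 and DESeq2 1.42.0 (without independent filtering or a Cook's cutoff) were run on the recovered reads. All tests were first tried on simulated counts. Pathway and marker lists were described by counts and medians, without a test. Other calculations used Python 3.11.15 with pandas 2.3.3, numpy 2.4.6 and scipy 1.17.1, and plots matplotlib 3.10.9.

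The members and lists were chosen with earlier results of these data known. Named outside the members were at most 4 genes per pathway list with an unadjusted p-value under 0.05, JAK1, TYK2, IFNAR1 and IFNAR2. Also named were the 5 genes most like the members in profile among those that met both filter conditions. Others are marked as chosen later. A listed gene is not reported here. Alternatives were other normalizations, pseudocounts, filters and tests, and leaving out each cow. The DESeq2 and edgeR fits with the filter on the mean alone, and fits with that filter without cow 489215, were added after the data had been seen. A RefSeq list of another assembly served for names and neighbours, and no positions or sequences are given.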

Additional observations from a re-analysis of the deposited data

How the results depend on the processing

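Counts of genes and members past an adjusted p-value of 0.05 stayed at 0 with edgeR, with edgeR using DESeq2 size factors, with TMM or library-size scaling, with the filter on the mean alone, without a filter and with pseudocounts of 0.5 and 10. DESeq2 called 409 genes and 0 of the 3 members that met both filter conditions. With the filter on the mean alone, tried after the data had been seen, DESeq2 called 541 genes and 3 members, and edgeR 0 of each. Leaving out 1 cow at a time gave 0 genes and 0 members in limma for every cow but SF/SCL replicate 2, which is cow 489215. Without that cow the calls were 2827 genes and 4 members in limma, 2805 and 4 in edgeR, and 3903 and 5 in DESeq2, where 5 members met both filter conditions. With the filter on the mean alone they were 2955 and 7 in limma, 2882 and 7 in edgeR, and 4267 and 8 in DESeq2. The median log2 difference over the members lay between 0.72 (without SF/SCL replicate 1) and 2.52 (without SF/SCL replicate 2). The log2 difference of STAT2 changed sign with library-size scaling (-0.049) and without LF/LCL replicate 1, SF/SCL replicate 1 or SF/SCL replicate 3, and ran from -0.19 to 0.42 over the cows left out. That of USP18 ran from -0.12 (without SF/SCL replicate 1) to 2.18 (without SF/SCL replicate 2). The cause of these changes was not tested. Of the other values for single members, judged with the filter on the mean alone where a member missed the SD condition, 106 kept their direction and side of the threshold and 25 came past it. The latter were fits without cow 489215 and, with all cows, DESeq2 for ISG15, MX2 and IFI6. With 3 cows a group an exact permutation test of a single gene could not pass the threshold, and with a cow left out the smaller group held 2. No paired analysis was possible because each cow gave 1 isthmus library and the replicate numbers tie no cow to one of the other group.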

Other observations

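Among the other antiviral interferon-stimulated genes, several were chosen after their values were seen because they had the same order of cows as the members. IFIT1, which binds viral RNA that lacks the host's cap, had normalized counts of 203, 488 and 283 in LF/LCL cows 617, 79 and 527 and 2403, 57.2 and 2071 in SF/SCL cows 856, 489215 and 97. OAS1Y, a synthetase of 2'-5' linked oligoadenylates that activate RNase L, had 1066, 1887 and 2772 in the LF/LCL cows and 11768, 1009 and 9124 in the SF/SCL cows. Its near copy OAS1Z, so that the split of reads between them is uncertain, had 124, 265 and 864 against 2485, 16.0 and 889. RNF213, a large ubiquitin ligase, had 1307, 1780 and 2368 against 7922, 584 and 7295. These genes were thus higher in cows 856 and 97 than in any LF/LCL cow and at their lowest in cow 489215, like MX1 and USP18. For OAS1Z, however, cow 97 at 889 was hardly above LF/LCL cow 527 at 864.

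Not all genes of that list had this order. NMI, a partner of STAT proteins, had 1580, 1422 and 1816 in the LF/LCL cows and 1433, 2363 and 1426 in SF/SCL cows 856, 489215 and 97. XAF1, a gene linked to apoptosis after interferon, had 1153, 1127 and 1141 against 1559, 2494 and 1509. Of the genes typical of interferon gamma, the immunoproteasome subunit PSMB10 had 1224, 934 and 1000 against 1024, 2191 and 1276. These genes too were chosen after their values were seen. Cow 489215 was the highest of the 6 cows for them, where 36.0% of all genes with a mean above 5 were highest in that cow.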
